A study of Homo sapiens with 7 samples.

Results

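The co-repressor N-CoR and the co-activator p300 were compared across the genome of Kasumi-1 cells through the genes nearest to their binding peaks. All 21024 peak summits deposited for the pair were used, 10004 for N-CoR and 11020 for p300, of 70435 in the 5 lists of the series, whether or not AML1 or AML1-ETO bound there. Each summit on a nuclear chromosome was assigned to the nearest transcription start site (TSS) among the protein-coding transcripts of GENCODE release 44 on GRCh37 (hg19), and 1 N-CoR summit on the mitochondrial sequence was left out. Of 19821 protein-coding genes with a TSS, 9308 received at least 1 summit and fell into 3 classes, genes with N-CoR only, p300 only and both. Kasumi-1 is an established human myeloblast line from peripheral blood that carries the t(8;21) translocation and expresses its product AML1-ETO, and cells of this single line were fixed in log phase without any drug, knockdown or other treatment. ChIP-seq, in which DNA crosslinked to a protein is immunoprecipitated and sequenced, was carried out with antibodies to N-CoR, p300, AML1, AML1-ETO (through an ETO antibody) and H3K4me3, and of the 7 samples of the series the H3K27me3 and input samples were not used here. Replicates of each antibody were pooled by the authors before peaks were called, so there is 1 list per antibody, no spread between replicates and no test. The lists give positions only, so the reads behind a peak are not known from them, and the exact Clopper-Pearson 95% intervals given below cover counting error only.

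N-CoR is the scaffold of a co-repressor complex that holds the histone deacetylase HDAC3 and takes histone acetyl groups off at the sites where transcription factors recruit it. p300, encoded by EP300, is a histone acetyltransferase that transcription factors recruit to promoters and enhancers and that works as a co-activator. In t(8;21) leukaemia AML1-ETO keeps the DNA-binding domain of AML1 (RUNX1) and recruits N-CoR through its ETO portion, while H3K4me3 marks the starts of genes that are active or poised.

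The names inside 3 of the lists went against their antibody. N-CoR peaks carried a name made from ETO, and p300 and H3K4me3 peaks a name made from AML1. The N-CoR list was not a copy of the AML1-ETO list, with 0.920% of its summits on the same base as an AML1-ETO summit. The p300 list was not a copy of the AML1 list, with 0.345% of its summits on the same base as an AML1 summit. No such count was made for H3K4me3 against AML1. The antibody of each list was taken from the sample it was deposited for. The number of summits in each list equals the number of peaks that the study gives for that antibody at its calling threshold. The cell type was checked by H3K4me3 within 1 kb of the TSS of marker genes. It was found at 8 of 10 myeloblast markers, among them CD34, CD33, SPI1 and CEBPA, beside 61.7% of all protein-coding genes, and at 2 of 8 T cell, 2 of 7 B cell, 1 of 7 erythroid, 1 of 7 epithelial and 1 of 5 hepatocyte markers. The myeloblast markers without it were MPO, whose nearest H3K4me3 summit was 2101 bp away, and KIT, at 1076 bp.

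To show what the bound DNA looks like, the 100 bp around a summit are printed below for the first gene of each class and distance band, in the order of the deposited peak numbers, and for TYROBP and RPS6KA1, where both summits met. The sequence is the plus strand of hg19. Capitals mark matches, on either strand, to short consensus sequences. For the blood factors these were TGTGGT for Runx proteins, AGGAAG for a form of the ETS site, GAGGAA for the ETS family member PU.1, which can overlap the ETS sequence, TTGCNNAA for C/EBP proteins, AGATAA for GATA proteins and CAACTG for Myb. For factors found in most cells they were GGGCGG for SP/KLF proteins, CCAAT for NF-Y, TGACGTCA for the CRE, CGCATGCG for NRF1, TGANTCA for AP-1 and CACGTG for the E-box.
CGREF1, N-CoR only within 1 kb, chr2:27342023-27342122: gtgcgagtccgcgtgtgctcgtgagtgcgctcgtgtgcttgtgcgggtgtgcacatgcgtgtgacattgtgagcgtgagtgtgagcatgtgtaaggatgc
PHYKPL, N-CoR only at 1-10 kb, chr5:177668306-177668405: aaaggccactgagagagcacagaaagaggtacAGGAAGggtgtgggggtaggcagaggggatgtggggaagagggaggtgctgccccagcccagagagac
AMBP, N-CoR only over 10 kb, chr9:116766741-116766840: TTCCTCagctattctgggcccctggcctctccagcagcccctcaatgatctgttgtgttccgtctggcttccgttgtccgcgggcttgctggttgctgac
HHEX, both within 1 kb, chr10:94451492-94451591: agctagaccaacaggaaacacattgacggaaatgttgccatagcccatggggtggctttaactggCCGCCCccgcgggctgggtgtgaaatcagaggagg
FMNL1, both at 1-10 kb, chr17:43303558-43303657: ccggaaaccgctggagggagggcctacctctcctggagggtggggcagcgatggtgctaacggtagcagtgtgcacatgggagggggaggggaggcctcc
PROSER2, both over 10 kb, chr10:11936761-11936860: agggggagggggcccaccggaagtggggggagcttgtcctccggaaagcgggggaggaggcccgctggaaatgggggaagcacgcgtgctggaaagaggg
ANP32E, p300 only within 1 kb, chr1:150208361-150208460: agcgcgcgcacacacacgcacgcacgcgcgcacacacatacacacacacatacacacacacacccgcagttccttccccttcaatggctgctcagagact
PLA2G1B, p300 only at 1-10 kb, chr12:120755264-120755363: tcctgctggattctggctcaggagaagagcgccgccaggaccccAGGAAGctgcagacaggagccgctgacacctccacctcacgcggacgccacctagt
MYO1D, p300 only over 10 kb, chr17:31149806-31149905: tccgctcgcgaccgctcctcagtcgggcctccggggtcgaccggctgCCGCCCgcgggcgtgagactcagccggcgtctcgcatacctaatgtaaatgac
TYROBP, both at 1-10 kb, chr19:36400330-36400429: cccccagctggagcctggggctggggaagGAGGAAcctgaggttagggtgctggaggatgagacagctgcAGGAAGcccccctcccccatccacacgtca
RPS6KA1, both at 1-10 kb, chr1:26868467-26868566: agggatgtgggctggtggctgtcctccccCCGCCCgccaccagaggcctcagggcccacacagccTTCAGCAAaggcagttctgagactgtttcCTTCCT
The N-CoR window near PHYKPL held an ETS match and that assigned to AMBP a PU.1 match. The window assigned to PLA2G1B, a pancreatic phospholipase gene, lay outside that gene and held an ETS match. The HHEX and MYO1D windows held an SP/KLF match. The CGREF1, FMNL1 and PROSER2 windows, all of N-CoR summits, held no match. Neither did the ANP32E window, on the TSS of a chaperone of the histone variant H2A.Z. Other ETS forms such as CCGGAAG, which the PROSER2 window holds, were not counted as matches. The window near TYROBP held both an ETS and a PU.1 match, and that of RPS6KA1 an ETS, an SP/KLF and a C/EBP match.

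The first question was where each co-regulator sits relative to genes. p300 was mostly at gene starts and N-CoR mostly away from them. Within 1 kb of a TSS lay 63.4% of p300 summits (95% interval 62.5 to 64.3) and 23.8% of N-CoR summits (2385 of 10003). Over 10 kb from any protein-coding TSS lay 53.7% of N-CoR summits (52.7 to 54.7) and 23.5% of p300 summits (22.7 to 24.3). The band between held 22.5% of N-CoR and 13.1% of p300 summits. The median distance was 12148 bp for N-CoR and 206 bp for p300. For both, the summits over 10 kb away were mostly outside exons: 45.0% of the N-CoR summits of that band were in introns and 51.5% between genes, against 36.7% and 58.7% for p300. When the TSSs of genes of every biotype were counted, 36.7% (33.6 to 39.9) of the p300 summits over 10 kb from a protein-coding TSS and without N-CoR were within 1 kb of one, against 9.95% (370 of 3720) of the N-CoR summits of that band without p300. Here and below, a summit counts as with the other protein where one of its summits lies within 100 bp, and as without it otherwise.

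At promoters themselves N-CoR leaned to the upstream side of the TSS. Of the summits within 1 kb, 72.6% (70.7 to 74.4) of those of N-CoR were upstream of the start, compared with 53.5% (52.3 to 54.7) of those of p300. The fullest 100 bp bin was the one just upstream of the TSS for N-CoR, with 950 summits, and the one just downstream for p300, with 2319 summits. In the bin just downstream N-CoR had 295 summits, and in the bin just upstream p300 had 1999. In percentage points of each antibody's summits, N-CoR and p300 thus differed most in the bins beside the start. Between 100 and 200 bp from the start, N-CoR had 350 summits upstream and 52 downstream, and p300 657 and 502. Farther out p300 was uneven too, with 441 summits between 300 and 200 bp upstream and 83 between 200 and 300 bp downstream, against 137 and 44 for N-CoR.

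**Figure D1:**
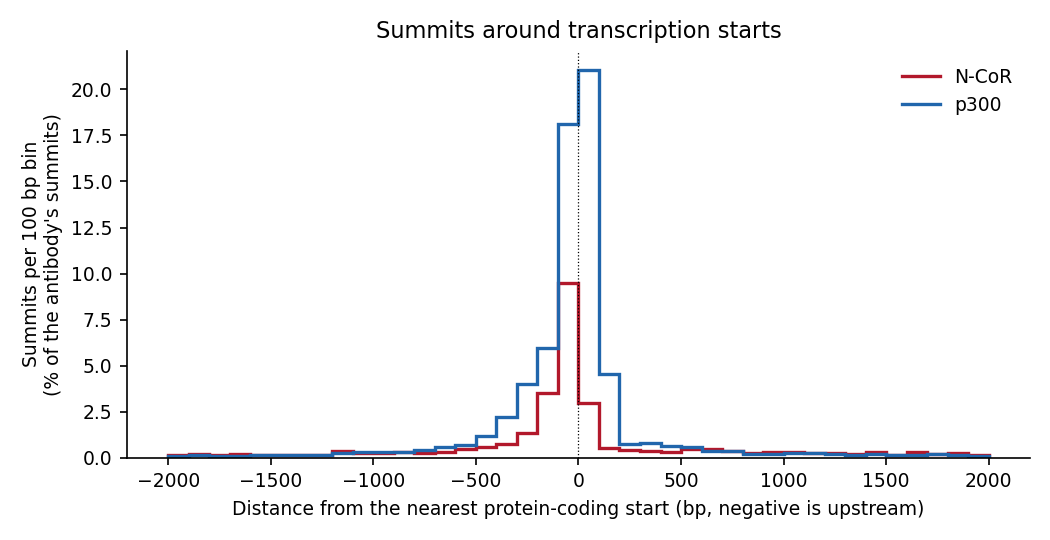
Summits of N-CoR (red) and p300 (blue) in 100 bp bins around the nearest protein-coding TSS, as a percentage of each antibody's summits, with negative distances upstream. The N-CoR profile peaks in the bin before the start, and the p300 profile in the bin after it.

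Genes were then sorted by which co-regulator they received. Over all bands, 27.4% of protein-coding genes had N-CoR and 39% had p300. N-CoR only was found at 1587 genes (8.01% of all), p300 only at 3868 (19.5%) and both at 3853 (19.4%), while 10513 genes had neither. Genes with both made up 70.8% (69.6 to 72.0) of the N-CoR genes and 49.9% (48.8 to 51.0) of the p300 genes.

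The classes changed places with distance. From summits within 1 kb alone, p300 only led with 4512 genes (22.8% of all), followed by both with 1717 (8.66%) and N-CoR only with 432 (2.18%). From summits at 1-10 kb, N-CoR only led with 900 genes (4.54%), both had 783 (3.95%) and p300 only 367 (1.85%). That lead was lost with 1 TSS per gene, where N-CoR only had 735 genes, both 780 and p300 only 637. In that band p300 only had 568 genes with a promoter band of 500 bp and 139 from the first 5000 peaks. Over 10 kb, N-CoR only had 1619 genes (8.17%), both 1363 (6.88%) and p300 only 356 (1.8%). With 1 TSS per gene these counts were 1742, 1735 and 568, and p300 only had 166 genes from the first 5000 peaks. At promoters most genes with N-CoR also had p300: 79.9% (78.1 to 81.6) of the genes with promoter N-CoR had promoter p300 as well, while 27.6% (26.5 to 28.7) of the genes with promoter p300 had promoter N-CoR. From the first 5000 peaks of each list these shares were 61.3% and 15.1%, with N-CoR only at 310 promoters. Over 10 kb from a TSS the larger share was on the p300 side, with 79.3% (77.3 to 81.2) of the p300 genes having N-CoR and 45.7% (43.9 to 47.5) of the N-CoR genes having p300. A gene can stand in different classes in different bands, and a gene counted without a protein may hold binding that did not pass the authors' threshold. The counts also depended on the rule: N-CoR only was 815 genes when a summit counted for every gene with a TSS within 10 kb, and both was 1570 genes from the first 5000 peaks of each list.

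**Figure D2:**
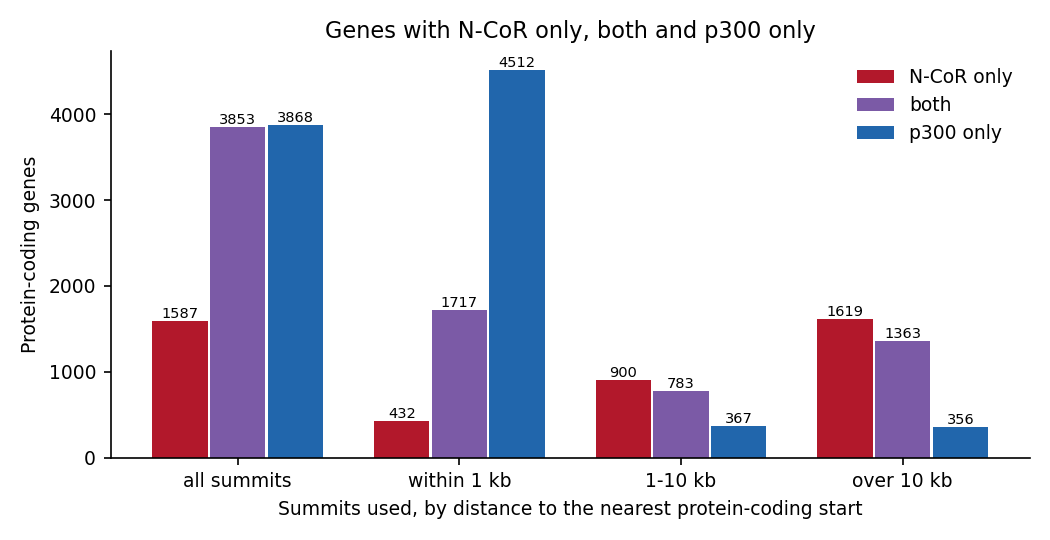
Number of protein-coding genes with N-CoR only (red), both (purple) and p300 only (blue), from all summits and from the summits of each distance band, with counts over the bars. p300 only leads within 1 kb with 4512 genes and N-CoR only leads over 10 kb with 1619.

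Genes with N-CoR only were reached mostly from a distance. For 864 of the 1587 the nearest N-CoR summit was over 10 kb from the TSS, for 385 it was at 1-10 kb and for 338 within 1 kb. Most of them, 76.4%, had a single N-CoR summit, and 8 genes had 5 or more. CCND3, which encodes the G1 cyclin D3, had 7 N-CoR summits and DOCK10 also had 7. Around CCND3 the summits lay at 935, 2306 and 4225 bp from a TSS inside the gene. The others lay at 2834, 20134, 31346 and 38217 bp from another, far upstream TSS of the gene. AML1-ETO lay between 1 and 45 bp from 6 of the 7, and no p300 summit came closer than 4765 bp to any of them. At DOCK10 no p300 summit came closer than 308623 bp, and AML1-ETO lay within 100 bp of 3 of the 7.

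TGFBI, an extracellular matrix protein, and FLRT2, a transmembrane adhesion protein, had 6 N-CoR summits each. Those of TGFBI had AML1-ETO at 3 to 41 bp. Those of FLRT2 had it at 14 to 59 bp from 5 of the 6, and reached from 734 bp to 1897611 bp from the nearest TSS of the gene. Among the genes first in the list order, DMWD had an N-CoR summit 136 bp upstream of a TSS inside the gene with AML1-ETO 4 bp away. DNAH14, a dynein heavy chain, had a summit 14 bp upstream of an internal TSS with AML1-ETO 29 bp away. CGREF1 had N-CoR 77 bp upstream of its TSS without an AML1-ETO summit within 32595 bp. At 1-10 kb, PHYKPL, an enzyme of hydroxylysine breakdown, had N-CoR at 6689 and 8553 bp, both inside an intron of COL23A1. FMNL3, a formin, had 3 N-CoR summits in its own introns, all within 57 bp of AML1-ETO. AMBP, the liver precursor of alpha-1-microglobulin, was assigned N-CoR at 70458 and 81830 bp, in introns of ZNF618. The nearest gene was thus not always the gene that held the summit: 38.8% of N-CoR summits over 10 kb lay inside the gene they were assigned to, and 32.7% of those of p300.

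Genes with p300 only were of another kind. For 3503 of the 3868 (90.6%, 89.6 to 91.5) the nearest p300 summit was within 1 kb of the TSS, and 89.4% had a single summit. ANP32E had 3 p300 summits, one of them 1 bp from a TSS. ANKRD26 had it 53 bp upstream, and VPS33A, a subunit of the complexes that tether membranes to the lysosome, 8 bp upstream. LTN1, the ubiquitin ligase that acts on stalled ribosomes, had p300 68 bp downstream of a TSS as well as 9824 bp upstream. MCAM, a cell adhesion molecule, had it 4650 and 6495 bp upstream of a TSS inside the gene. MYO1D, an unconventional myosin, had a summit 40205 bp downstream of a TSS in an intron, where an AML1-ETO summit lay on the same base and no N-CoR summit within 472736 bp.

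Only 2 genes with p300 only had 5 summits, KCTD7 and the secreted ligand WNT11. At KCTD7 they lay between 247 and 135069 bp from the TSS, each with an H3K4me3 summit within 577 bp. MELK, a mitotic kinase, had 4, from 186 to 193176 bp, each with H3K4me3 within 403 bp. At WNT11 the nearest H3K4me3 summit was 69 to 1193 bp away. RP11-685N3.1, also with 4 p300 summits, all over 10 kb away, had H3K4me3 at 28 and 62 bp from 2 of them and at 32480 and 177217 bp from the others. Distant p300 summits of KCTD7, WNT11 and MELK thus lay near H3K4me3, and those of RP11-685N3.1 only in part.

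Genes with both were the ones with most summits. They had 2.05 N-CoR and 1.74 p300 summits on average, compared with 1.32 N-CoR summits for genes with N-CoR only and 1.12 p300 summits for genes with p300 only, and 323 of them had 5 or more N-CoR summits. SEPTIN9, a septin of the cytoskeleton, had 19 N-CoR and 10 p300 summits. MYC, a transcription factor of cell growth, had 18 and 11, DENND3, an exchange factor for Rab GTPases, 17 and 14, ID2, an inhibitor of helix-loop-helix factors, 17 and 11, and ZFP36L2, an RNA-binding protein that promotes mRNA decay, 16 and 12. At ID2 all 17 N-CoR summits were 34158 bp or more upstream of the TSS, and a p300 summit was 34 bp downstream of another TSS, inside the gene. A gene with more summits has more chances to receive both proteins, and the part of this in the class was not tested.

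In most genes with both, the proteins met at the same place. The smallest gap between an N-CoR and a p300 summit of the gene was at most 100 bp in 2613 of 3853 genes (67.8%, 66.3 to 69.3), with a median of 40 bp. It was over 10 kb in 501 genes (13.0%), so that in these the proteins were near the same gene but at separate sites. MEIS1, a homeobox partner of HOX proteins, was one, with p300 within 1 kb of its TSS, N-CoR over 10 kb away and a smallest gap of 380032 bp. Where the nearest summits were in different bands, it was p300 that was nearer to the TSS in 1042 genes and N-CoR in 167. In 610 genes p300 was within 1 kb and N-CoR no closer than 10 kb, against 43 genes with the reverse.

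TYROBP, LAPTM5 and RPS6KA1, loci that the study looked at, had both, as did BPI. At TYROBP, the signalling adapter DAP12, 1 N-CoR and 1 p300 summit lay 1 bp apart, 1183 and 1182 bp upstream of the TSS, with AML1-ETO 16 and 17 bp away. At RPS6KA1, the kinase RSK1, an N-CoR and a p300 summit were on the same base 1086 bp upstream of an internal TSS. BPI, a bactericidal granule protein, had N-CoR 62 bp and p300 66 bp upstream of the TSS and another pair 5182 and 5219 bp upstream, and its nearest H3K4me3 summit was 117188 bp from the TSS. LAPTM5, a lysosomal protein of blood cells, had 5 N-CoR and 2 p300 summits, the closest pair 13 bp apart just upstream of the TSS. HHEX, a homeobox factor of early blood progenitors, had a pair 15 bp apart, with N-CoR 35 bp upstream of a TSS inside the gene. Another pair, 4 bp apart, had N-CoR 884 bp upstream of that TSS, in an intron. A further pair, 61 bp apart, had N-CoR 65229 bp downstream of its nearest TSS. FMNL1, a formin of leukocytes, had 3 pairs, with N-CoR at 29, 4356 and 7377 bp from the nearest TSS and p300 19, 19 and 59 bp from N-CoR.

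Seen from single summits, meeting became rarer with distance for N-CoR and more frequent for p300. A p300 summit lay within 100 bp of 52.2% (50.1 to 54.2) of N-CoR summits within 1 kb of a TSS, 37.9% (35.9 to 39.9) at 1-10 kb and 30.7% (29.5 to 32.0) over 10 kb. An N-CoR summit lay within 100 bp of 17.8% (16.9 to 18.7) of p300 summits within 1 kb, 59.1% (56.5 to 61.7) at 1-10 kb and 63.7% (61.8 to 65.5) over 10 kb. The meetings were nearly the same ones, 1244 summits of either within 1 kb and 1650 of N-CoR and 1651 of p300 over 10 kb. With nearly equal numbers of meetings, the shares of N-CoR and p300 differ by the totals they are taken of. These were 2385 N-CoR and 6988 p300 summits within 1 kb and 5370 and 2593 over 10 kb. Why the numbers differ with distance was not tested. The N-CoR summits over 10 kb with p300 had a median peak number of 2190.5 in the list and those without it 5608.5, but the files do not say what the numbers rank.

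AML1-ETO and AML1, which the classes did not use, were more frequent at N-CoR summits than at p300 summits without N-CoR. AML1-ETO lay within 100 bp of 54.6%, 69.7% and 68.8% of the N-CoR summits without p300 within 1 kb, at 1-10 kb and over 10 kb. The shares were 61.3%, 85.3% and 84.8% for N-CoR summits with p300, and 13.9%, 21.4% and 21.7% for p300 summits without N-CoR. In each band the last was lower than both others by more than the counting intervals. AML1 followed the same order, at 53.3% (51.7 to 54.9) of N-CoR summits without p300 over 10 kb, 68.6% (66.3 to 70.8) of those with p300 and 11.9% (9.89 to 14.1) of p300 summits without N-CoR. AML1-ETO was thus most frequent where N-CoR and p300 met away from promoters, and least frequent at promoter p300 without N-CoR.

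H3K4me3 had another order. An H3K4me3 summit was within 1 kb of 96.9% (96.5 to 97.4) of p300 summits without N-CoR at promoters, 87.1% (85.1 to 88.9) of N-CoR summits with p300 and 74.5% (71.9 to 77.0) of N-CoR summits without p300. Over 10 kb the shares were 53.3% (50.0 to 56.5), 15.3% (13.6 to 17.2) and 5.56% (4.85 to 6.35). Among summits over 10 kb from a protein-coding TSS, p300 without N-CoR was thus the group most often next to H3K4me3.

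**Figure D3:**
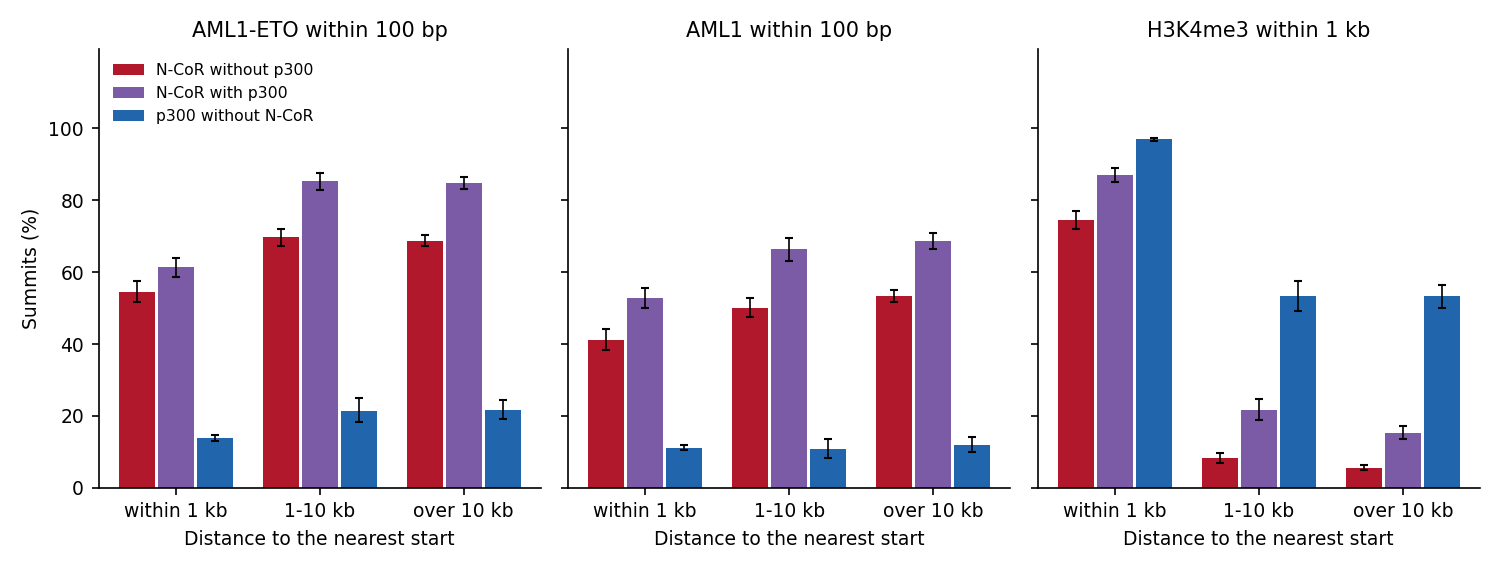
Share of summits with an AML1-ETO summit within 100 bp (left), an AML1 summit within 100 bp (middle) and an H3K4me3 summit within 1 kb (right), for N-CoR without p300 (red), N-CoR with p300 within 100 bp (purple) and p300 without N-CoR (blue) in each distance band. Bars are percentages with exact 95% intervals; AML1-ETO and AML1 are lowest at p300 without N-CoR, and H3K4me3 is highest there.

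Gene by gene, H3K4me3 within 1 kb of a TSS was found at 93.8% (93.0 to 94.6) of genes with p300 only, 87.0% (85.9 to 88.1) of genes with both, 60.7% (58.3 to 63.2) of genes with N-CoR only and 40.7% of genes with neither, beside 61.7% of all protein-coding genes. Genes with N-CoR only were thus close to the average gene. Within that class the share was 84.0% (79.7 to 87.8) where the nearest N-CoR summit was within 1 kb and 53.8% (50.4 to 57.2) where it was over 10 kb. For p300 only it was 99.0% and 42.6% (35.5 to 49.8). AML1-ETO was assigned by the same nearest-TSS rule to 83.9% (82.0 to 85.6) of genes with N-CoR only, 88.1% (87.0 to 89.1) with both, 38.6% (37.1 to 40.2) with p300 only and 19.5% with neither, beside 41.7% of all genes. When an AML1-ETO summit had to lie within 10 kb of a TSS, the shares were 48.0% (45.5 to 50.5) with N-CoR only, 69.2% (67.8 to 70.7) with both and 39.6% (38.1 to 41.2) with p300 only. The gap between N-CoR only and p300 only was thus narrower by that rule, and genes with both had the highest share by either rule.

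Genes of the classes also differed in size and surroundings, which bears on how many distant summits a gene can be assigned. The median gene span was 44.9 kb with N-CoR only, 42.8 kb with both, 27.6 kb with p300 only and 20.4 kb with neither. The median distance to the nearest TSS of another gene was 36.7 kb, 29.2 kb, 13.7 kb and 17.7 kb. Another gene's TSS lay within 1 kb for 25.3% (24.0 to 26.7) of genes with p300 only and 13.7% (12.6 to 14.8) of genes with both. The share was 15.6% with N-CoR only and 19.2% with neither, beside 19.1% of all genes. At such paired starts a summit counts for the nearer gene alone. The part of gene size and spacing in the classes was not tested.

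The sequence under the summits was counted next, as the share of 100 bp windows with a consensus. The ETS sequence AGGAAG, a form of the site that PU.1 can bind and that leaves out other ETS forms such as CCGGAAG, was in 50.8% (48.1 to 53.4) of N-CoR summits without p300 at 1-10 kb and 49.6% (48.0 to 51.2) over 10 kb, where windows 1000 bp to either side had it in 11.3% and 11.1%. N-CoR summits with p300 had it in 55.8% and 51.7%, and p300 summits without N-CoR in 26.2% (22.7 to 29.9) and 23.8% (21.1 to 26.6). Within 1 kb the shares were 30.5% (27.8 to 33.3), 31.1% (28.5 to 33.8) and 13.0% (12.1 to 13.9), beside 13.1% of windows on all protein-coding TSSs. Promoter p300 without N-CoR thus held AGGAAG about as often as any gene start, and other ETS forms were not counted.

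The Runx sequence, bound by AML1 and AML1-ETO, was most frequent under N-CoR without p300. Over 10 kb it was in 25.7% (24.3 to 27.1) of these windows, 19.2% (17.3 to 21.1) of N-CoR windows with p300 and 6.05% (4.61 to 7.77) of p300 windows without N-CoR, and windows to either side had it in 7.30%, 6.79% and 5.84%. Within 1 kb it was in 10.3% (8.64 to 12.3), 7.48% (6.08 to 9.08) and 2.91% (2.49 to 3.38), beside 4.11% of all TSS windows, and there the intervals with and without p300 overlapped. The C/EBP sequence was in 14.7% (13.5 to 15.8) of N-CoR windows without p300 over 10 kb and 4.14% (2.96 to 5.62) of p300 windows without N-CoR, where windows to either side had it in 4.81% and 4.67%. The AP-1 sequence was in 9.25% (344 of 3720) and 3.18% (2.16 to 4.52), with 3.28% and 2.23% to either side.

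Other sequences gave other patterns. The Myb sequence was in 6.48% (5.71 to 7.32) of N-CoR windows without p300 over 10 kb and 9.39% (8.03 to 10.9) of those with p300. It was in 7.86% (6.22 to 9.76) of p300 windows without N-CoR. Windows to either side had it in 4.33%, 4.48% and 4.19%. Over 10 kb the GATA sequence was in 4.57% (3.92 to 5.29) of N-CoR windows without p300 and 2.65% (1.72 to 3.89) of p300 windows without N-CoR. Both were below the 5.89% and 5.25% to either side. The E-box was in 1.56% (1.19 to 2.01) and 3.40% (2.33 to 4.76), and the CRE in 0.161% and 0.425%, with overlapping intervals. The PU.1 sequence went with the ETS form, at 33.9% (32.4 to 35.4) and 18.5% (16.0 to 21.1). The GC-rich SP/KLF sequence differed by band. At promoters it was in 285 of 1141 N-CoR windows without p300 (interval 22.5% to 27.6%) and 27.2% (26.1 to 28.4) of p300 windows without N-CoR, with overlapping intervals and beside 27.1% of all TSS windows. Over 10 kb it was in 3.31% (2.76 to 3.93) and 14.3% (12.2 to 16.7). CCAAT, the NF-Y sequence, was in 12.5% (10.7 to 14.6) of promoter N-CoR windows without p300, 7.80% (6.37 to 9.43) of those with p300 and 7.28% (6.62 to 7.98) of p300 windows without N-CoR, beside 9.99% of all TSS windows. NRF1, a factor of many housekeeping promoters, had its sequence in 1.46% (1.17 to 1.81) of promoter p300 windows without N-CoR, 0.438% (0.142 to 1.02) of N-CoR windows without p300 and 0.939% of all TSS windows.

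Base composition also differed between the groups of summits. CpG-rich sequence, defined as 500 bp with over 50% GC and an observed to expected CpG ratio over 0.6, surrounded 91.5% (90.7 to 92.2) of promoter p300 summits without N-CoR, 71.5% (68.9 to 74.0) of promoter N-CoR summits with p300 and 57.8% (54.9 to 60.7) of those without. Over 10 kb the shares were 40.6% (37.4 to 43.8), 6.97% (5.79 to 8.31) and 2.74% (2.24 to 3.32). p300 without N-CoR thus lay in CpG-rich sequence more often than N-CoR in both bands, and the part of base composition in the consensus counts was not tested. A match is a run of letters, not a shown binding site.

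**Figure D4:**
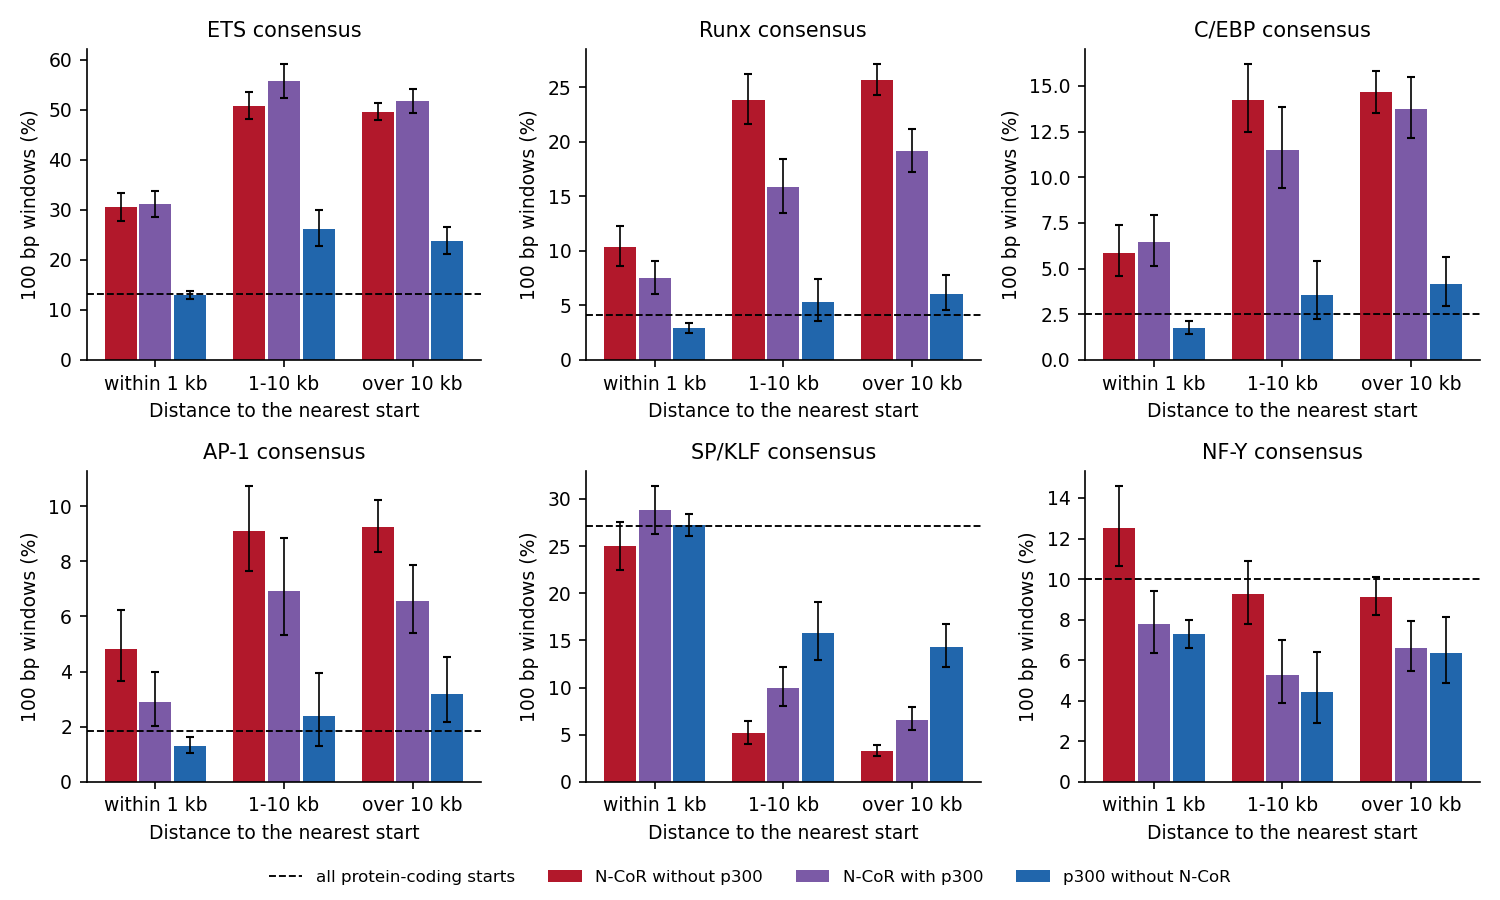
Share of 100 bp summit windows with the ETS, Runx, C/EBP, AP-1, SP/KLF and NF-Y consensus, by distance band, for N-CoR without p300 (red), N-CoR with p300 (purple) and p300 without N-CoR (blue), with exact 95% intervals. Dashed lines are the share in 100 bp windows on all protein-coding TSSs, a background for the promoter band alone; the ETS, Runx, C/EBP and AP-1 sequences are lower under p300 without N-CoR than under N-CoR without p300 in each band.

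Lists of genes with a known role showed which kinds of gene stood in which class. Among all genes 8.01% had N-CoR only, 19.5% p300 only and 19.4% both, and the counts below are a description beside these shares. Transcription factors of the blood lineage were mostly in the class with both. Of 16 transcription factors of blood stem and progenitor cells, 11 had both, 2 had p300 only and none had N-CoR only. RUNX1 had 13 N-CoR and 8 p300 summits with a smallest gap of 2 bp, FLI1 9 and 3, IKZF1 7 and 4, LMO2 6 and 4, and TAL1 1 and 1, 3 bp apart. CBFB, the partner subunit of RUNX1, had 1 p300 summit within 1 kb and no N-CoR. Of 16 myeloid transcription factors 9 had both, with 3 N-CoR and 2 p300 summits at SPI1, the gene of PU.1, 6 and 6 at GFI1, a repressor of myeloid genes, and 7 and 4 at IRF8, all over 10 kb away. CEBPE, which acts late in granulocyte maturation, had 2 N-CoR summits within 1 kb and no p300.

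Many signalling and effector genes of myeloid cells also had both. Both proteins were found at 19 of 25 myeloid kinases, phosphatases and adapters (76.0%), with 6 N-CoR summits and 1 p300 summit at SYK and 6 and 5 at VAV1. Of the 25, 17 had N-CoR within 1 kb of the TSS, a share of 68.0% beside 10.8% of all genes. FCER1G, the Fc receptor gamma chain, and FGR, a Src-family kinase, had N-CoR only. Of the 6 subunits of the phagocyte NADPH oxidase, 5 had both, among them CYBB and CYBA. NCF1, the subunit with neither, has near-identical copies in the genome. Of 16 granule proteins 8 had both, among them MPO with 4 N-CoR and 4 p300 summits, while its neighbours in function ELANE and PRTN3 had p300 only and N-CoR only. Among 20 growth factor and cytokine receptors 10 had both, with 6 N-CoR and 7 p300 summits at KIT, the stem cell factor receptor, and 3 and 2 at CSF1R. CSF3R, the G-CSF receptor, had 2 p300 summits and no N-CoR. Of 16 AP-1 and immediate early genes 13 had both (81.2%), with 8 N-CoR and 2 p300 summits at FOS and 5 and 4 at JUNB.

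N-CoR only was on either side of its 8.01% among all genes in the short lists, and no test was made. It was found at 3 of 16 genes in the granule and the adhesion list, 4 of 29 nuclear receptors, 2 of 13 MHC class II genes and 2 of 20 growth factor and cytokine receptors. It was found at 2 of 25 kinases, phosphatases and adapters, 1 of 16 genes in the myeloid factor and the BCL2 list, 0 of 16 stem cell factors and 0 of 6 NADPH oxidase subunits. It was found at 5 of 19 Toll-like receptors and their adapters, namely TLR1, TLR5, TLR9, TLR10 and IRAK1, each with 1 summit. It was found at 4 of 17 chemokine receptor and leukotriene genes, CCR1, CCR7, LTC4S and C5AR1, also with 1 summit each. Of 16 leukocyte adhesion genes 3 had N-CoR only, the integrins ITGAM with 2 summits and ITGAX with 1, and ICAM2, whereas their common partner chain ITGB2 had both, with 6 N-CoR and 5 p300 summits. BCL2A1, a survival protein, had 3 N-CoR summits and no p300, while its relative MCL1 had 1 p300 summit and no N-CoR. In the whole BCL2 family of 16 genes, 6 had p300 only and 5 both. Of 18 NF-kB pathway genes 8 had both, 4 p300 only and 1 N-CoR only.

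Lists of housekeeping genes had p300 only more often than its 19.5% among all genes. This class held 23 of 36 spliceosome proteins (63.9%), 21 of 35 aminoacyl-tRNA synthetases (60.0%), 22 of 39 proteasome subunits (56.4%), 44 of 81 cytosolic ribosomal proteins (54.3%), 36 of 78 mitochondrial ribosomal proteins (46.2%), 18 of 40 DNA repair genes (45.0%) and 25 of 56 genes with an EIF name, most of which encode translation initiation factors. None of the spliceosome, tRNA synthetase and proteasome genes had N-CoR only. p300 was within 1 kb of 74 of the 81 cytosolic ribosomal protein genes (91.4%, beside 31.4% of all genes) and N-CoR of 24 (29.6%, beside 10.8%). The class with both held 37.0% of the cytosolic and 33.3% of the mitochondrial ribosomal protein genes, beside 19.4% of all genes. In the cell cycle list, 12 of 32 had p300 only, such as CDK4, and 3 had N-CoR only, CCND3, CDKN2B and E2F1. Zinc finger genes of chromosome 19, which lie in clusters of similar genes, had p300 only in 82 of 240 cases and N-CoR only in 4. Of 40 RNA polymerase II and Mediator subunits 16 had p300 only, 9 both and 2 N-CoR only.

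Core and linker histone genes did not share that pattern. N-CoR was within 1 kb of 35 of 73 (47.9%, beside 10.8% of all genes) and p300 of 30 (41.1%, beside 31.4%). N-CoR only was found at 14 (19.2%), p300 only at 11 (15.1%) and both at 22 (30.1%), beside 8.01%, 19.5% and 19.4% of all genes. H4C1, H3C4, H2BC5 and H2AC14 were among those with N-CoR only, each with 1 summit within 1 kb. These genes stand close together and have near-identical copies, so reads and summits may be credited to a neighbour.

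Neither protein was found at most genes of some families, beside 53.0% of all protein-coding genes with neither. The count was 374 of 388 olfactory receptors, which have many similar copies, 139 of 149 keratin and keratin-associated genes and 30 of 39 HOX genes (76.9%). MHC class II was the blood list with fewest summits: 9 of 13 genes (69.2%) had neither, none had both, and their transactivator CIITA had 1 N-CoR summit. Of 29 nuclear receptors, the family through which N-CoR was first known, 7 had both, 7 p300 only, 4 N-CoR only and 11 neither. RXRA, the shared partner of many of them, had 8 N-CoR and 7 p300 summits, and RARA 4 and 2. Among the 21 co-regulator genes 11 had both. TBL1XR1, a subunit of the N-CoR complex, had 12 N-CoR and 6 p300 summits, CBFA2T3, a relative of ETO, 7 and 7, and EP300 itself 2 and 3. NCOR1, the gene of N-CoR, had 1 p300 summit within 1 kb and no N-CoR, and HDAC3 had neither.

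**Figure D5:**
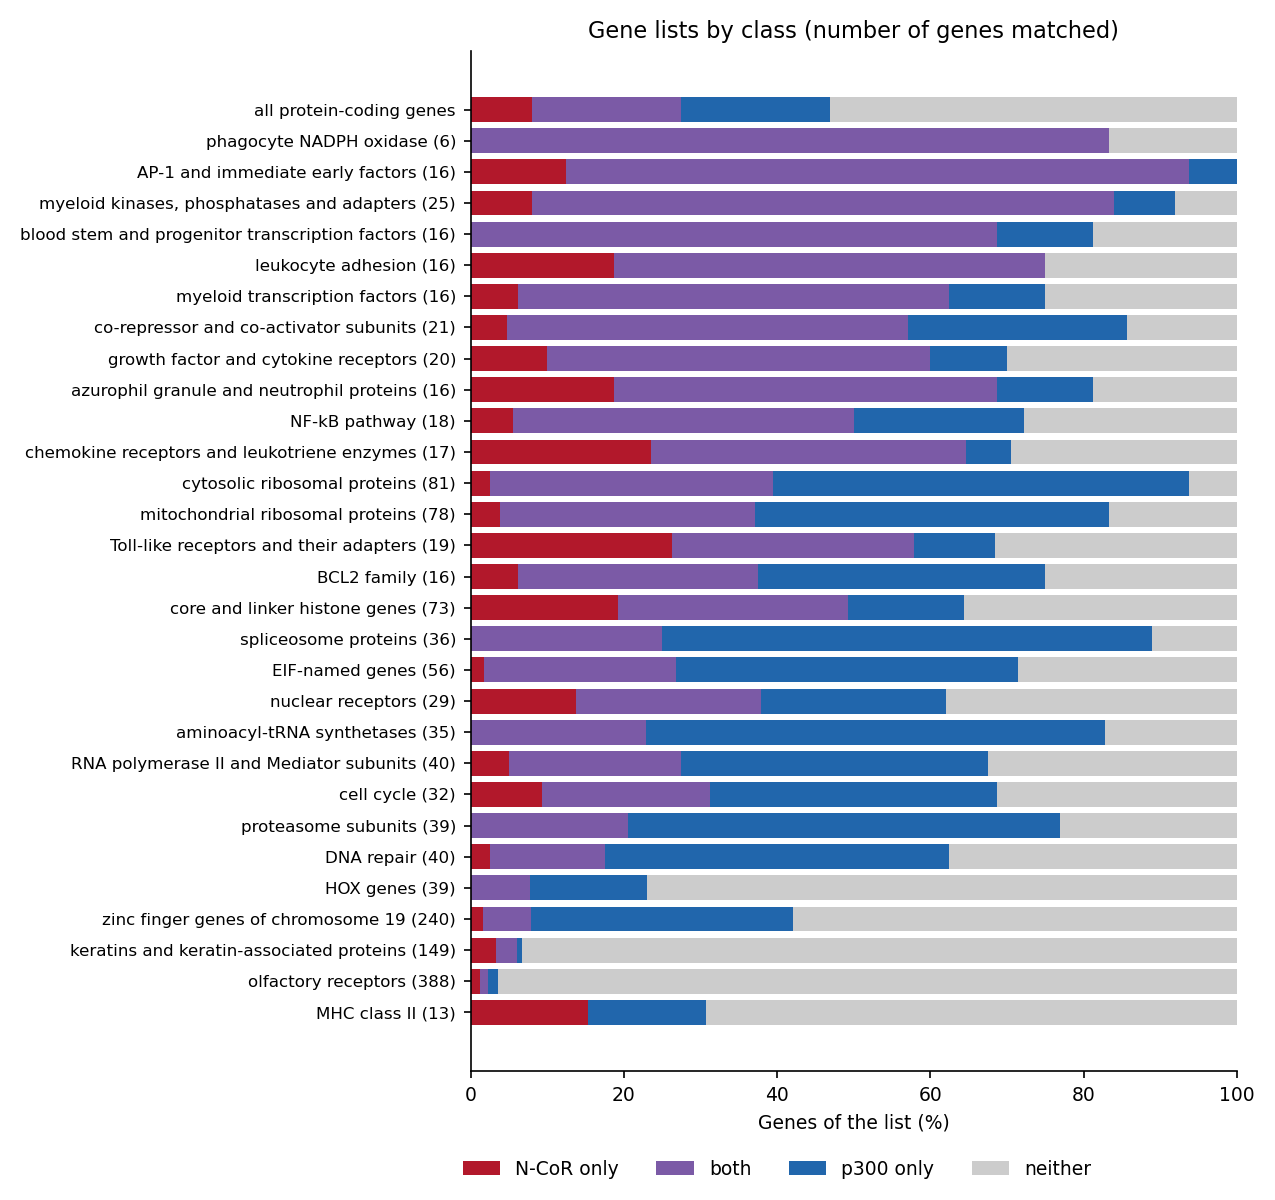
Share of the genes of each list with N-CoR only (red), both (purple), p300 only (blue) and neither (grey), ordered by the share with both, with the number of genes in brackets and all protein-coding genes in the top bar. NADPH oxidase, AP-1, kinase and blood stem factor lists lead the share with both, and the spliceosome, tRNA synthetase, proteasome and ribosomal lists have p300 only at 46.2% to 63.9% of their genes.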

How the data were processed

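ChIP-seq of Kasumi-1 cells gave 1 summit list per antibody. The authors aligned the reads of the pooled replicates, called peaks against input and deposited the summits as positions of 100 bp in hg19, with no score, so a stricter threshold could not be set and the lists do not show depth. The study gives read totals per library, which were not used here, so unequal depth may bear on which genes count as without a protein. The submitters' processing notes name CASAVA 1.6, Bowtie 0.12.8 and MACS2 2.0.10.20131216. The deposited lists of N-CoR, p300, AML1, AML1-ETO and H3K4me3 were used.

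The summit was taken as the start of the deposited interval plus 50 bp. Each was assigned to the nearest of 78564 protein-coding starts of GENCODE release 44 on GRCh37, and sequences were read from the GRCh37 genome. Where genes shared the nearest start (11 N-CoR and 17 p300 summits), readthrough and unnamed genes were passed over and then the first gene ID was taken. A gene's class came from the summits assigned to it, over all distances or in 1 band alone. Intervals are exact Clopper-Pearson bounds at 95%. With 1 pooled list per antibody no test was made. Counts were made in Python 3.11.15 with numpy 2.4.6, the bounds came from SciPy 1.17.1, sequences were read with pysam 0.24.0 and plots drawn with matplotlib 3.10.9. The assignment was tested on simulated summits.

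Named genes were TYROBP, LAPTM5, RPS6KA1 and BPI, for each class and band the 3 genes with the lowest peak number, for each class the 5 genes with most summits, and members of 29 gene lists. Windows on chromosome 8 are not printed, and some genes named by this rule are not reported here. The members and lists were chosen with earlier results of these data known, so they support no pattern independently. Alternatives changed the assignment rule, the TSS set, the bands, the distances, the windows and the part of the lists used.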

Additional observations from a re-analysis of the deposited data

How the results depend on the processing

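No paired analysis was possible because each antibody has 1 pooled list. Under the alternatives, 42 values stayed within the limits set for them and 30 moved past them. The limit was a fold change for counts and the 95% interval of the main value for shares. The latter is much narrower, so the tally mixes unlike limits and does not measure how stable the results are. The order of classes turned at 1-10 kb with 1 TSS per gene (N-CoR only 735, both 780). Over all bands p300 only and both were close (3868 and 3853), and both led with 1 TSS per gene (3827 and 3900) and with basal regions (4140 and 5973), whereas p300 only led with TSSs of every biotype (3890 and 2683), with every gene within 10 kb (5099 and 3404), without summits over 100 kb away (3938 and 3625), without chromosomes 8 and 21 (3720 and 3625) and with the first 5000 peaks (2567 and 1570). A count can hold while its genes change: of the 1587 genes with N-CoR only, 580 (36.5%) kept that class with every gene within 10 kb, 696 (43.9%) with the first 5000 peaks, 950 (59.9%) with TSSs of every biotype, 1093 (68.9%) with basal regions, and 83.7% to 94.7% under the other alternatives. The classes depended most on how much of the lists and which gene rule was used. With the first 5000 peaks of each list, 2567 genes had p300 only and 1570 both, with 2765 and 491 from summits within 1 kb (N-CoR only 310), 139 and 336 at 1-10 kb, and 166 and 623 over 10 kb, and 17.9% of N-CoR and 68.1% of p300 summits lay within 1 kb. What the peak numbers rank is not stated, and fewer summits leave fewer genes to be counted. When every gene with a TSS within 10 kb received the summit, 815 genes had N-CoR only, and with basal regions extended to the neighbours 5973 had both. With 1 TSS per gene, 637 genes had p300 only at 1-10 kb and 568 over 10 kb, and the share within 1 kb was 17.0% for N-CoR and 52.6% for p300. With a promoter band of 500 bp, 568 genes had p300 only in the middle band. Genes with both shared a summit in 55.7% at 50 bp and 76.8% at 250 bp. H3K4me3 within 500 bp was at 55.4%, 88.2% and 81.5% of genes with N-CoR only, p300 only and both, and within 2 kb at 94.7% and 88.3% of the last 2 classes. AML1-ETO within 10 kb was at 48.0% of genes with N-CoR only and 69.2% with both. Within 100 bp of the summit the Runx and ETS sequences were in 29.1% and 61.8% of N-CoR and 11.7% and 38.8% of p300 windows. The causes were not tested beyond what each rule sets by construction.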

Other observations

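The classes were spread unevenly over the chromosomes. Genes with p300 only were 27.2% of the genes of chromosome 19 and 7.42% of those of X. Genes with both were 32.1% of the genes of chromosome 10 and 6.60% of those of X. Genes with N-CoR only were 14.5% of the genes of chromosome 18, 11.7% of those of chromosome 6 and 4.87% of those of chromosome 19. These values are a description.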
